A study of Mus musculus with 12 samples.

Results

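The forkhead genes Foxp1, Foxp2, Foxp4, Foxo1, Foxo3, Foxo4, Foxc1 and Foxc2 were examined in H3K27ac peak lists from adipocyte progenitors of Azin2-/- and wild-type mice. These 8 genes were taken from a given list, out of 21631 protein-coding genes on chromosomes 1 to 19 and X. A locus is the gene's span in GRCm38 with 5 kb on each side. H3K27ac is acetylation of lysine 27 of histone H3, a mark of active promoters and enhancers, and it was measured by chromatin immunoprecipitation and sequencing. The progenitors came from fat under the skin and had grown for 1 week in glucose-rich medium (4.5 g/L) with 10% serum. They then received 1 µM rosiglitazone, 1 µM dexamethasone and 0.5 mM 3-isobutyl-1-methylxanthine together with 5 µg/ml insulin for 2 days, followed by 5 days with 5 µg/ml insulin as the only addition named. Azin2 encodes an antizyme inhibitor, a protein that counters the antizymes of polyamine metabolism. The Azin2-/- group has 3 libraries, numbered 1, 2 and 8, and the wild-type group has 3, numbered 1, 2 and 2b. Both groups went through the same culture, and the labels give neither the nature of the Azin2 allele nor the number of mice behind each genotype's libraries. Spreads between libraries may therefore be technical. The 6 input libraries are not analysed here.

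Forkhead proteins bind DNA through a winged-helix domain that prefers sequences close to TGTTTAC. FOXP proteins form dimers and act mainly as repressors, and Foxp1 has been reported in mice to restrain the brown and beige fat programme. FOXO proteins are the nuclear targets of insulin signalling: AKT phosphorylates them, 14-3-3 proteins hold them in the cytoplasm, and Foxo1 restrains adipocyte differentiation while it stays in the nucleus. FOXC proteins act in the mesoderm and in blood and lymph vessels, and Foxc2 expression in mouse fat favours a brown-like, lean state. Foxp1 is transcribed from alternative starts, which give proteins with and without the amino-terminal part.

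The RefSeq promoter table holds 3 starts for Foxp1 and 1 each for Foxp4, Foxo1, Foxo3 and Foxc1, so 5 of the 8 genes were matched. The first Foxp1 start of that table lies 1753 bp inside the upstream end of the gene span, for which it holds no promoter. Starts of Foxp1 are numbered by the table only. For Foxp2, Foxo4 and Foxc2 the 2 ends of the gene span were used. The promoters below run from 250 bases before to 50 bases after each start (GRCm38.p6). The 3 Foxp1 promoters are shown because the peaks of both genotypes were placed along them, and that of Foxp4 because its start carried a peak in all 6 libraries. Capitals mark the forkhead motif TGTTTAT or its reverse complement ATAAACA.
Foxp1 start 1 (minus strand, chr6:99520944-99521243): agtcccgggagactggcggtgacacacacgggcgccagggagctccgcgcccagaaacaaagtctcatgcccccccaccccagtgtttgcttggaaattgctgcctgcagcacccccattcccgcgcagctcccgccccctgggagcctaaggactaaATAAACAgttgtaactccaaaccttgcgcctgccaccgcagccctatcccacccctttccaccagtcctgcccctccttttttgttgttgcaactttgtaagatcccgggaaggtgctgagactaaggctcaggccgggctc
Foxp1 start 2 (minus strand, chr6:99266466-99266765): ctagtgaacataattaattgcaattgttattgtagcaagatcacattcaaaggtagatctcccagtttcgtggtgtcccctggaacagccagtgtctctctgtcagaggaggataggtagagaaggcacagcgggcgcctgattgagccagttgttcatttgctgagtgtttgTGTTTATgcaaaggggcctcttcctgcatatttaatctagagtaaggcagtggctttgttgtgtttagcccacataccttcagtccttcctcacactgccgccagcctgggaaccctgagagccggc
Foxp1 start 3 (minus strand, chr6:99028249-99028548): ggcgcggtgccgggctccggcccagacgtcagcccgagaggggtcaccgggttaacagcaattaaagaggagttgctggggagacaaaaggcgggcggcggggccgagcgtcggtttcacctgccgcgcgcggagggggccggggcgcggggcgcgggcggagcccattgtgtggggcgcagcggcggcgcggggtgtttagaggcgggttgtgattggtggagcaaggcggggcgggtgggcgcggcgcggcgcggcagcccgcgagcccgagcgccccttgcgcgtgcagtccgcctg
Foxp4 start (minus strand, chr17:47924583-47924882): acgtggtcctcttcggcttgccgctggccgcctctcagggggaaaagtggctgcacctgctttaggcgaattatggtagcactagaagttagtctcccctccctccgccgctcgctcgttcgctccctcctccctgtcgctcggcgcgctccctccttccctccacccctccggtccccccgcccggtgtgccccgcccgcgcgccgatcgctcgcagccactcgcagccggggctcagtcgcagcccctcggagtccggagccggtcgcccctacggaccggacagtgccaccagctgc

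The 3 Foxp1 promoters differ in base composition. The first has a GC content of 60.3% with 13 CpG dinucleotides, the second 48.7% with 5, and the third 75.3% with 44. The Foxp4 promoter resembles the third, with 70.3% and 33. The motif TGTTTAC, which reads GTAAACA on the other strand, was searched on both strands and was in none of the 7 promoters of these genes, against 3.03% of 21045 promoters of the same length. TGTTTAT was in the first Foxp1 promoter, at position -92 from the start on the strand opposite to the gene, and in the second, at position -77 on the gene's own strand. It was in none of the other 5, against 3.94% of all promoters, and either motif was in 6.78% of them. No match of the 2 motifs overlapped, and a match is a description of the letters only.

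Each library is a list of narrow peaks, with between 741843 and 1216000 deposited peaks, of which 13843 to 54847 had a deposited q of 0.05 or less. The 30000 peaks of smallest p per library were used, and the base pairs that they cover in a locus are called its cover. These peaks cover 28.9, 22.6 and 21.1 Mb in Azin2-/- 1, 2 and 8, and 16.8, 21.9 and 28.0 Mb in wild-type 1, 2 and 2b. Log2 differences are therefore given after scaling to equal total cover, with 500 bp added for loci and 200 bp for single regions, so that they understate the difference of little-covered loci. The Jaccard index of 2 lists, the base pairs shared out of those covered by either, was 0.121 to 0.243. That of wild-type 2 with 2b was 0.159, against 0.135 for wild-type 1 with 2 and 0.140 for 1 with 2b. Wild-type 2 and 2b were counted as separate libraries, but the index cannot show whether they come from separate mice. The Azin2 locus had a cover of 870 to 1492 bp in Azin2-/- and 1150 to 2426 bp in wild-type, which does not check the genotype because the deleted part is not given. Of 15 progenitor markers, all had a peak in at least 1 library, and Pdgfra, Cd24a, Itgb1 and Zfp423 had one in all 6. Of 10 adipocyte markers, 9 had a peak in some library, Cebpa, Plin1 and Fasn in all 6, and Adipoq was at 0 in every library. Of 5 T cell markers, 2 had a peak in some library, and Cd3e, Cd8a and Foxp3 were at 0 in every library. The summed cover of the 5 was 798 to 5101 bp in Azin2-/- and 0 to 1365 bp in wild-type. The summed cover of 6 endothelial markers was 5622 to 6832 bp in Azin2-/- and 802 to 6010 bp in wild-type, that of 5 muscle markers 4239 to 6488 bp and 0 to 4506 bp with Myog at 0 throughout, and that of 6 macrophage and leukocyte markers 1473 to 3226 bp and 771 to 1531 bp. The part of these cell types in the forkhead values was not tested. In such bulk libraries fewer acetylated cells and less acetylation per cell cannot be told apart.

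Foxp1 had less peak cover in Azin2-/- on average, and the genes were chosen on this difference, so it is described and not tested. The gene runs from 98925342 to 99522746 on chromosome 6 (597 kb, minus strand). The locus also touches 5 other genes, none of them protein-coding, so its cover cannot be assigned to Foxp1 alone. The Foxp1 locus had a cover of 5578, 4118 and 8295 bp in Azin2-/- 1, 2 and 8, against 8542, 7488 and 14078 bp in wild-type 1, 2 and 2b. Wild-type 2b stands highest, and Azin2-/- 8 lies above wild-type 2, so the genotypes overlap. The mean ± SD of 3 libraries was 5997 ± 2120 bp in Azin2-/- against 10036 ± 3540 bp in wild-type, and the scaled log2 difference was -0.83 (SE 0.43). That value lies at percentile 5.87 of the 11687 gene loci tested, whose median was 0.07.

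The size of the Foxp1 difference followed the depth of the list. With the 5000 strongest peaks of each library the log2 difference was -2.23, with 15000 it was -1.62, with 60000 it was -0.60 and with all deposited peaks -0.37. At 5000 the cover of Azin2-/- 1 was 0 bp, because its strongest Foxp1 peak, of fold 10.6, ranked 8469 in its list. Among peaks of a deposited q of 0.01 or less the log2 difference was -2.24. Foxp1 was then 1 of 4 loci called lower in Azin2-/- by limma, out of 9437 tested (0.0424% called lower and 0.233% called higher). The gene list was chosen from that call, so nothing is read from it. In the main fit to the lists of 30000 peaks none of the 11687 loci was called in either direction (limma, Benjamini-Hochberg at 0.05). At an unadjusted p under 0.05 there were 503 higher and 246 lower.

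**Figure D1:**
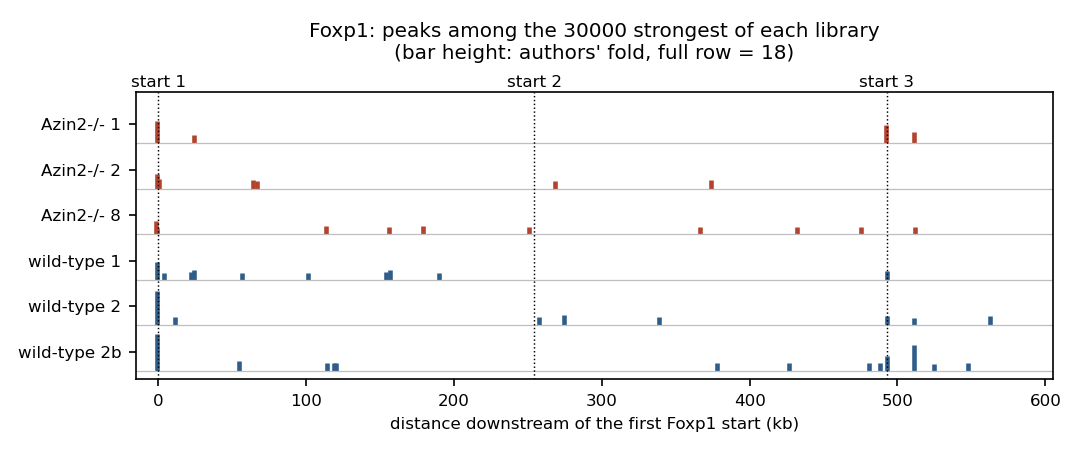
Peaks among the 30000 strongest of each library along Foxp1, by distance downstream of the first start (kb); bar height is the authors' fold enrichment, with a full row at 18, in Azin2-/- (red) and wild-type (blue). The tallest bar of each library stands at start 1, start 2 has no peak within 1 kb in any library, and start 3 has peaks in Azin2-/- 1 and in the 3 wild-type libraries.

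Along the gene the peaks met at few places. The 6 lists held 4, 6 and 10 peaks in the Foxp1 locus in Azin2-/- 1, 2 and 8, and 10, 8 and 13 in wild-type 1, 2 and 2b. Merged where they overlap by at least 1 bp, these made 36 regions, of which 31 were covered in 1 library only. This share of 86.1% is close to the 85.8% of all 128537 merged regions. Of these 31, 10 were covered in an Azin2-/- library and 21 in a wild-type library, while the other 5 regions were covered in both genotypes. No region was thus shared by libraries of 1 genotype alone. The same split over all merged regions was not computed, so nothing is read from it. The region at the first start was the only one covered in all 6 libraries.

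That region runs from 99519187 to 99523642 on chromosome 6. Its cover was 2977, 1053 and 1970 bp in Azin2-/- 1, 2 and 8, against 3546, 3048 and 4456 bp in wild-type 1, 2 and 2b. Every Azin2-/- library lies below every wild-type library, with Azin2-/- 1 closest. The mean ± SD of 3 libraries was 2000 ± 962 bp in Azin2-/- against 3683 ± 714 bp in wild-type, with a log2 difference of -1.04 (SE 0.22). Genotypes did not overlap in 7.84% of the 22192 merged regions tested, with Azin2-/- higher in 5.23% and lower in 2.61%, and nothing is read from the Foxp1 region being among them, since this contrast chose it. With all deposited peaks the cover was 3321, 1900 and 1970 bp in Azin2-/- 1, 2 and 8 and 3546, 3297 and 4456 bp in wild-type 1, 2 and 2b, and Azin2-/- 1 then passes wild-type 2. With the 5000 strongest peaks it was 0, 685 and 1079 bp in Azin2-/-, while the wild-type values stayed as with 30000. The 0 of Azin2-/- 1 is a matter of rank, since its peak of fold 10.6 ranked 8469 in its list. The wild-type 1 peak, of fold 8.48, ranked 1001. At a deposited q of 0.05 or less these 2 libraries have 54847 and 21544 peaks.

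**Figure D2:**
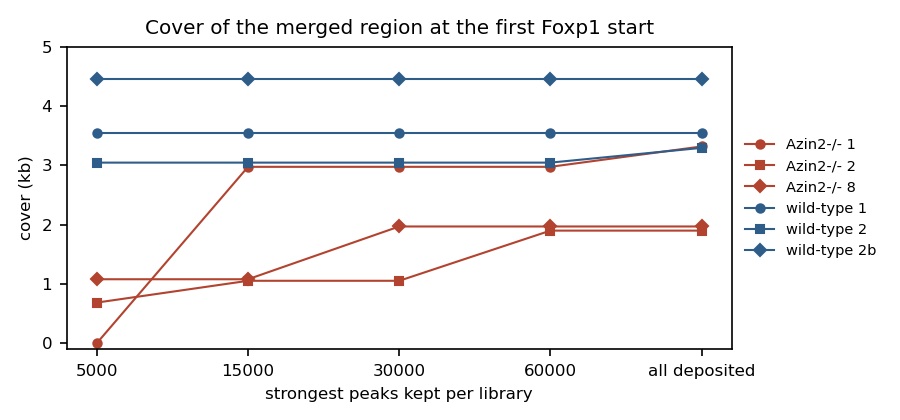
Cover (kb) of the merged region at the first Foxp1 start in each library (red Azin2-/-, blue wild-type) with 5000, 15000, 30000 or 60000 of the strongest peaks kept, or all deposited peaks. Wild-type lines stay nearly level between 3048 and 4456 bp, and Azin2-/- 1 is at 0 with the 5000 strongest peaks and at 2977 bp with 15000. The peak of Azin2-/- 1 ranked 8469 in its list.

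The first-start peaks differed in form as well as length. Azin2-/- 1 had 1 peak of 2977 bp, Azin2-/- 2 had 2 peaks of 368 and 685 bp, and Azin2-/- 8 had 2 peaks of 891 and 1079 bp. Each wild-type library had 1 unbroken peak. In their own lists of 30000, the wild-type peaks were among the longest, with 9, 28 and 22 peaks of that length or longer in wild-type 1, 2 and 2b. The longest first-start peak of Azin2-/- 1, 2 and 8 had 158, 13883 and 4275 such peaks.

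The summits, the positions of most fragments within a peak, also stood at different places. In wild-type 1, 2 and 2b the summit lay 1773, 1731 and 1768 bp upstream of the first start in the promoter table. These places are within 22 bp of the outer end of the annotated Foxp1 span. Foxp1 lies on the minus strand, so this is the upstream end of the gene, where the promoter table holds no start. In Azin2-/- 1 the summit lay 473 bp upstream of the first start. In Azin2-/- 2 the stronger of the 2 peaks had its summit 318 bp upstream. Azin2-/- 8 had a summit at each place, 447 and 1656 bp upstream, and the outer was the stronger (rank 305 of its list, against 25441). All 3 Azin2-/- libraries thus had a summit between 318 and 473 bp upstream, where no wild-type library had a listed one. The outer place had a summit in 1 Azin2-/- and 3 wild-type libraries. Each peak was read with 1 summit, so a lesser rise inside an unbroken wild-type peak would not show. The region was chosen on this contrast, so the summit places are described only.

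When each peak is replaced by a fixed window of 250 bp on each side of its summit, this region falls into 2 windows. The inner one, from 68 to 723 bp upstream of the start, then holds 501 bp in each Azin2-/- library and 0 in each wild-type library. The outer one, from 1406 to 2023 bp upstream, holds 0, 0 and 501 bp in Azin2-/- 1, 2 and 8 and 501 bp in each wild-type library. The inner window restates where the summits are and not how much is acetylated, since the unbroken wild-type peaks run across it. Its log2 difference of 1.81 has for that reason the opposite sign to that of the whole region. Of 11357 merged windows tested in this way, the genotypes did not overlap in 1073 with Azin2-/- higher and in 48 with Azin2-/- lower.

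These peaks rest on few fragments. The number of fragments stacked at the summit, worked out from the deposited fold and p, was 13, 10 and 32 in Azin2-/- 1, 2 and 8, against 9, 23 and 33 in wild-type 1, 2 and 2b. The genotypes overlap in this height. The exact 95% Poisson intervals, which cover counting error only, run from 6.92 to 22.2 for the 13 fragments of Azin2-/- 1 and from 4.12 to 17.1 for the 9 of wild-type 1. Local background at this peak was 4.49 fragments in Azin2-/- 8 and at most 0.984 in the other 5 libraries, so that equal heights gave unequal folds: 10.6, 7.06 and 6.02 in Azin2-/- 1, 2 and 8, against 8.48, 16.4 and 17.1 in wild-type 1, 2 and 2b. The part of this background in the difference was not tested.

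**Figure D3:**
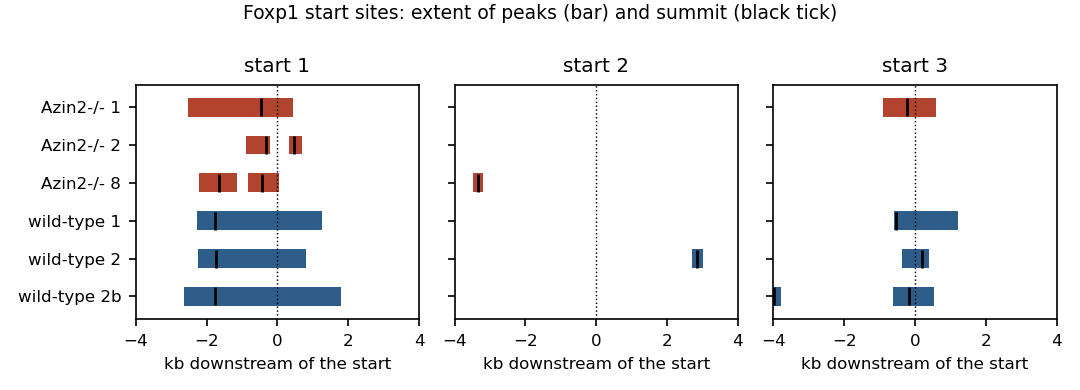
Extent (bars) and summits (black ticks) of peaks within 4 kb of the 3 Foxp1 starts, in kb downstream of each start, for Azin2-/- (red) and wild-type (blue) libraries. At start 1 the wild-type summits line up 1731 to 1773 bp upstream, while each Azin2-/- library has a summit 318 to 473 bp upstream. Azin2-/- 8 has another summit 1656 bp upstream.

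The second start, 254 kb downstream of the first and poor in CpG, had no peak within 1 kb in any of the 6 lists. Weaker deposited peaks, of ranks from 140382 to 610935, lay within 1 kb in Azin2-/- 8 and in the 3 wild-type libraries. The nearest listed peaks had summits 3330 bp upstream in Azin2-/- 8 and 2840 bp downstream in wild-type 2. Among all 6676 promoters with 5 CpG or fewer, 83.3% had no listed peak within 1 kb in any library, and 42.5% of all 21045 starts had none.

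The third start, 493 kb downstream of the first and the most CpG-rich, was marked in 1 Azin2-/- library and in all 3 wild-type libraries. The region there had a cover of 1510, 0 and 0 bp in Azin2-/- 1, 2 and 8, against 1806, 755 and 1184 bp in wild-type 1, 2 and 2b. Azin2-/- 1 lies within the wild-type range, and the other Azin2-/- libraries lie below it. The log2 difference was -1.94 (SE 0.87). Azin2-/- 2 and 8 did have weaker deposited peaks there, at ranks 35433 and 83465, so their zeros mean that the peak was below the 30000 strongest and not that the mark was absent. The wild-type peaks themselves rest on 4, 6 and 12 fragments at the summit in wild-type 1, 2 and 2b, and that of Azin2-/- 1 on 10.

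Another shared place lay 511 kb downstream of the first start and 18 kb beyond the third. Its cover was 854, 0 and 591 bp in Azin2-/- 1, 2 and 8, against 0, 843 and 1155 bp in wild-type 1, 2 and 2b. Each genotype had 2 libraries with a peak there, and the log2 difference of -0.25 turned to 0.46 without Azin2-/- 2, to 0.14 without wild-type 2 and to 0.19 without wild-type 2b.

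Foxp2, a FOXP repressor known for its part in speech and motor circuits, overlapped between the genotypes. Its locus had a cover of 4571, 1426 and 3667 bp in Azin2-/- 1, 2 and 8, against 4191, 1706 and 2884 bp in wild-type 1, 2 and 2b. The ranges lie almost on each other, and the log2 difference of -0.06 (SE 0.46) turned to 0.32 without Azin2-/- 2 and to 0.37 without wild-type 1. The gene end with the lower coordinate, 14901349 on chromosome 6, had a listed peak in Azin2-/- 1 and 2 and in wild-type 1 and 2b, with summits 113 to 370 bp inside the gene. The other end had none. Of its 23 merged regions 22 were covered in 1 library only.

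Foxp4, a FOXP repressor found in lung and gut epithelium and in T cells, was marked at its start in every library. The start peak ranked 211, 235 and 2387 in the lists of Azin2-/- 1, 2 and 8, against 55, 63 and 712 in those of wild-type 1, 2 and 2b. The region there had a cover of 2528, 2335 and 1521 bp in Azin2-/-, against 1810, 1599 and 2017 bp in wild-type, so the genotypes overlap. The log2 difference of that region was 0.06 (SE 0.22). The locus as a whole covered 4789, 3753 and 2508 bp in Azin2-/- 1, 2 and 8, against 1810, 4209 and 2017 bp in wild-type 1, 2 and 2b, a log2 difference of 0.31 (SE 0.38) that was 0.03 without wild-type 2b and 0.63 without wild-type 2. At wild-type 1 and 2b the start region was the whole of that cover.

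Foxo1, the main FOXO of insulin-responsive tissues, had the smallest log2 difference of the 7 loci tested. Its locus had a cover of 3068, 3001 and 2690 bp in Azin2-/- 1, 2 and 8, against 2201, 2475 and 3120 bp in wild-type 1, 2 and 2b. The mean ± SD of 3 libraries was 2920 ± 202 bp in Azin2-/- against 2599 ± 472 bp in wild-type. The log2 difference was 0.03 (SE 0.31) and its sign changed in 6 of 23 alternative settings, while with the 5000 strongest peaks it was 0.92. Most of the cover lay in 1 region at the start, with 2653, 3001 and 2085 bp in Azin2-/- 1, 2 and 8 and 1497, 2144 and 2689 bp in wild-type 1, 2 and 2b. A summit lay 139 to 713 bp downstream of the start in all 6 libraries. Azin2-/- 8 and wild-type 1 had a further peak, with its summit 1543 and 1525 bp downstream. In wild-type 1 this further peak was the stronger (rank 5745 against 22332).

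Foxo3, a FOXO factor of stress resistance and cell survival, had the broadest start region of the FOXO genes. That region covered 4200, 3390 and 3137 bp in Azin2-/- 1, 2 and 8, against 2592, 3390 and 4075 bp in wild-type 1, 2 and 2b. Azin2-/- 2 and wild-type 2 have the same length, and the log2 difference was -0.03 (SE 0.08). It was broken into 2, 3 and 3 peaks in Azin2-/- 1, 2 and 8 and into 1, 2 and 1 in wild-type 1, 2 and 2b. Summits recurred 1557 to 1676 bp upstream of the start in 5 libraries, all but wild-type 1, whose single summit lay 1615 bp downstream. Over the locus the cover was 5621, 3885 and 4730 bp in Azin2-/- 1, 2 and 8, against 3055, 4280 and 9806 bp in wild-type 1, 2 and 2b. The log2 difference of -0.23 (SE 0.37) rests on wild-type 2b, without which it was 0.05.

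Foxo4, the X-linked FOXO gene, was hardly marked. Its locus had a cover of 0 bp in all 3 Azin2-/- libraries, and of 0, 303 and 1377 bp in wild-type 1, 2 and 2b. The 1377 bp of wild-type 2b are 1 peak at the lower gene end, ranked 25782, with 3 fragments at its summit. The locus fell under the minimum mean cover of 500 bp and has no log2 difference. It also touches the protein-coding genes Gm614 and Il2rg, so its cover cannot be assigned to Foxo4 alone. The same limit holds for Foxp1, as given above. It also holds for Foxp2, Foxp4 and Foxo3, whose loci each touch 1 other gene that does not code for protein.

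Foxc1 and Foxc2, small genes of the mesodermal lineages, carried the densest marking of the 8, apart from Foxc2 in wild-type 1. The Foxc1 locus had a cover of 5767, 3873 and 1406 bp in Azin2-/- 1, 2 and 8, against 4192, 3898 and 5830 bp in wild-type 1, 2 and 2b. Per kb of locus this stood at percentile 94.1 or higher of all tested loci in every library. Azin2-/- 8 is the low library, and the log2 difference of -0.58 (SE 0.40) was -0.17 without it.

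The Foxc1 peaks recurred at fixed places. A peak over the gene, whose summit lay 1402 to 1968 bp downstream of the start, was present in all 6 libraries, with a region cover of 2949, 2274 and 1406 bp in Azin2-/- 1, 2 and 8 and 3255, 2105 and 4245 bp in wild-type 1, 2 and 2b. A second region, with summits 4579 to 4986 bp downstream of the start and so past the gene's end, covered 1750, 1599 and 0 bp in Azin2-/- 1, 2 and 8, against 937, 1793 and 1585 bp in wild-type 1, 2 and 2b. It was missing from the list of Azin2-/- 8 alone. Another peak, with its summit 5198 bp upstream of the start, was listed only in Azin2-/- 1.

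Foxc2 was marked over its lower end in 5 of 6 libraries. Its locus had a cover of 3187, 2435 and 1820 bp in Azin2-/- 1, 2 and 8, against 233, 2528 and 2440 bp in wild-type 1, 2 and 2b. Wild-type 1 stands apart from the other 5, and the log2 difference of 0.60 (SE 0.49) was 0.00 without it, and 0.98 without wild-type 2. Its density stood at percentile 97.0 or higher in those 5 libraries and at 53.4 in wild-type 1. Wild-type 1 had a weaker deposited peak at that end, at rank 102638. It is also the library with the smallest total cover (16.8 Mb) and the smallest share of starts with a listed peak (28.9%). Its marker cover, which is not scaled, was lowest for the endothelial, muscle and epithelial lists, at 802, 0 and 1438 bp. It was not lowest for the progenitor, adipocyte, macrophage and leukocyte, or mural lists. The part of any of these in the missing Foxc2 peak was not tested. Summits lay 229 to 368 bp inside the lower end in the 5 libraries. A second peak, with summits 1006 and 929 bp outside it, was listed in Azin2-/- 1 and 2 and in no wild-type library.

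**Figure D4:**
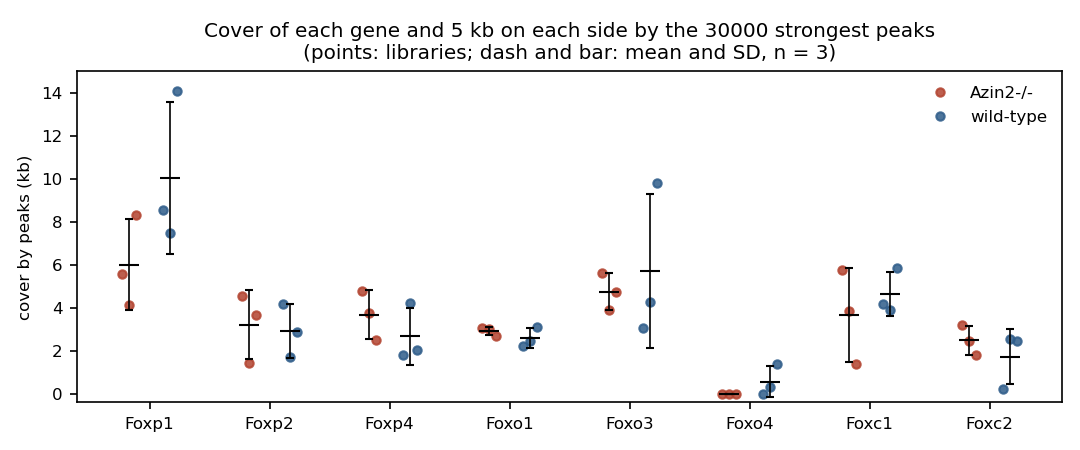
Cover (kb) of each locus by the 30000 strongest peaks in each library, Azin2-/- (red) left of wild-type (blue), with the mean and SD of 3 libraries in black. Foxp1 has the highest wild-type values, up to 14078 bp, and the genotypes overlap at every gene, with the 3 Azin2-/- libraries at 0 for Foxo4.

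Across the genes, 7 of the 8 passed the minimum cover. Of these 7, 3 had a log2 difference above 0 and 4 below 0, with a median of -0.06 beside 0.07 over all loci. In none did all libraries of 1 genotype lie above all of the other after scaling, against 11.5% of all 11687 loci. That 0 of 7 is too few genes to read against this share.

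All 5 genes with a start in the promoter table had 1 that was marked in every library. The other genes have no start there and could not be counted. The 5 genes have 7 starts in that table, and the shares over all promoters below are per start. Within 1 kb, Foxp4, Foxo1, Foxo3, Foxc1 and the first Foxp1 start had a listed peak in all 6 libraries. Over all promoters this held for 18.2% of 21045, and for 39.0% of those with 20 CpG or more, 11.6% of those with 6 to 19 and 1.14% of those with 5 or fewer. Foxp4, Foxo1, Foxo3 and Foxc1 have 33, 31, 35 and 32 CpG and so fall in the richest class. The first Foxp1 start, with 13, is in the middle class, and the third Foxp1 start, with 44, is richer than any of them yet was marked in 4 of 6 libraries. Among the 5000 strongest peaks of each library, Foxp4, Foxo3 and Foxc1 still had a start peak in all 6. Foxo1 had one in 5, the first Foxp1 start in 4 and the third in 1. At the first Foxp1 start Azin2-/- 8 was not counted, because its peak of rank 305 lies 1138 bp away, past the 1 kb reach. Azin2-/- 1 was not counted there either, because its peak ranked 8469.

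Most peaks away from these starts were listed in 1 library, as over the whole genome. Over all 8 loci there were 152 listed peaks in 90 merged regions, of which 5 (5.56%) were covered in all 6 libraries, and 74 (82.2%) in 1 library. Over all 128537 merged regions these shares were 3.23% and 85.8%. The 5 are the start regions just named. Stacks of 8 fragments or fewer made up 65.1% of the 152 peaks, and the median was 6.

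**Figure D5:**
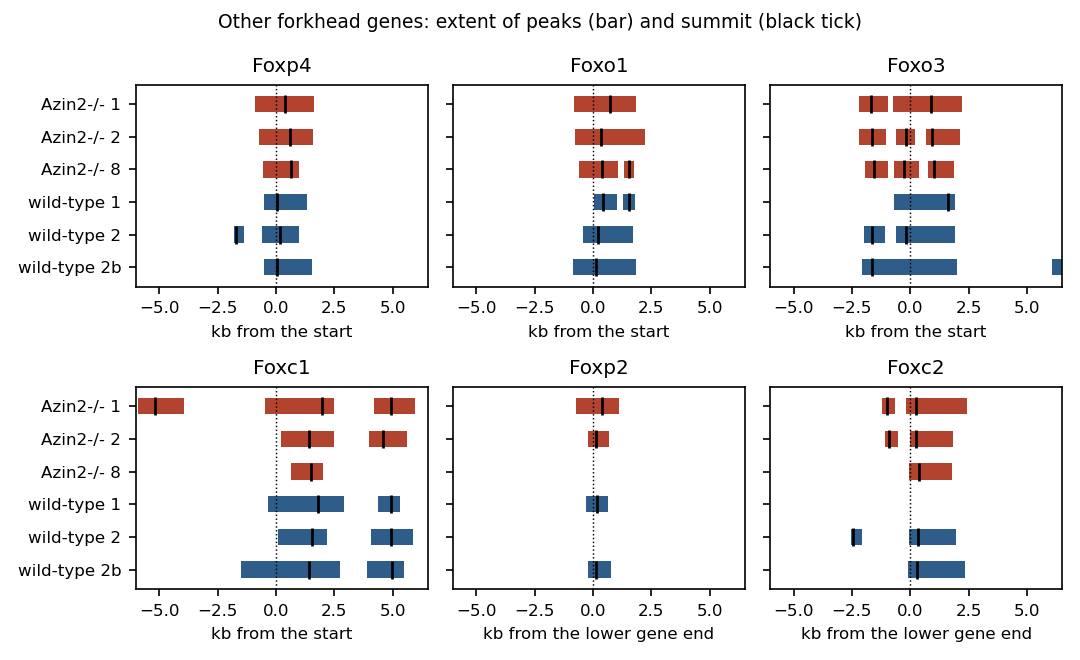
Extent (bars) and summits (black ticks) of peaks near the starts of Foxp4, Foxo1, Foxo3 and Foxc1 (kb downstream of the start) and the lower gene ends of Foxp2 and Foxc2, for Azin2-/- (red) and wild-type (blue) libraries. Every library has a peak at the first 4 genes, Foxp2 has none in Azin2-/- 8 and wild-type 2, and Foxc2 has none in wild-type 1 at this end.

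Other genes of these pathways were read from lists, and no gene on them was called (0% of the 11687 loci were called in each direction). Over all 11687 loci 54.8% had a log2 difference above 0, and no list was tested against that share. Of 36 other forkhead genes 29 were tested, 21 with a log2 difference above 0 and 8 below, with a median of 0.31 beside 0.07 over all loci. At an unadjusted p under 0.05 there were 5 above and 1 below, against 503 and 246 of all 11687 loci. The genotypes of these forkhead genes did not overlap at 5 genes with Azin2-/- higher and at 1 with Azin2-/- lower. Over all loci these shares were 6.66% and 4.86%, and 29 genes are too few to read against them. Foxb1, a factor of the developing brain, had a cover of 2327, 1515 and 1107 bp in Azin2-/- 1, 2 and 8, against 0, 366 and 0 bp in wild-type 1, 2 and 2b (limma adjusted p = 0.752). Foxd4 had 2315, 1902 and 593 bp in Azin2-/- and was at 0 in each wild-type library. Both genes thus had listed peaks mostly or entirely in Azin2-/- libraries without passing the adjusted threshold. They passed the minimum mean cover of 500 bp only through those libraries, so a higher Azin2-/- value was fixed by that filter. Both are among the 5 genes counted as not overlapping with Azin2-/- higher, and nothing is read from them.

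On the other side stood Foxn3, a repressor tied to cell cycle checkpoints, with 5172, 2373 and 5027 bp in Azin2-/- 1, 2 and 8, against 6133, 6683 and 9014 bp in wild-type 1, 2 and 2b. Its log2 difference was -0.91 (SE 0.38, limma adjusted p = 0.767) and its genotypes did not overlap. Foxk1, a repressor of autophagy genes, had 4154, 961 and 1670 bp in Azin2-/- and 2389, 3139 and 4768 bp in wild-type, and overlapped.

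The insulin pathway that controls FOXO proteins had 28 of 29 genes tested, 14 above 0 and 14 below, with a median of -0.00. At an unadjusted p under 0.05 there were 1 above and 0 below. After scaling the genotypes did not overlap at 1 gene in each direction, while over all 11687 loci 6.66% were higher and 4.86% lower in this way. Pik3r2, a regulatory subunit of phosphoinositide 3-kinase, covered 8192, 2289 and 1664 bp in Azin2-/- 1, 2 and 8, against 0, 1402 and 707 bp in wild-type 1, 2 and 2b (log2 difference 1.82, limma adjusted p = 0.752). Its genotypes did not overlap, and Azin2-/- 1 was far above the rest. The receptor gene Igf1r covered 4678, 5108 and 5383 bp in Azin2-/- and 4788, 6555 and 7735 bp in wild-type (log2 difference -0.41, limma adjusted p = 0.845). Its genotypes overlapped in this cover before scaling but not after it, so it is the gene counted with Azin2-/- lower. Pik3cb, a catalytic subunit, and the 14-3-3 gene Ywhag had log2 differences of 1.15 and -0.97 with genotypes that overlapped.

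Among 30 FOXO target genes 22 were tested, 8 above 0 and 14 below, with a median of -0.09. At an unadjusted p under 0.05 there were 0 above and 1 below. After scaling the genotypes did not overlap at 0 genes with Azin2-/- higher and 3 with Azin2-/- lower. Over all 11687 loci these shares were 6.66% and 4.86%, and 22 genes are too few to read against them. Bcl6, a repressor that FOXO factors induce, covered 1538, 1218 and 1304 bp in Azin2-/- 1, 2 and 8, against 4394, 1709 and 6306 bp in wild-type 1, 2 and 2b. Every Azin2-/- library lies below every wild-type library (log2 difference -1.30, SE 0.42, limma adjusted p = 0.752). Eif4ebp1, an inhibitor of translation, covered 1003, 922 and 745 bp in Azin2-/- and 2285, 1257 and 1512 bp in wild-type (log2 difference -0.75, limma adjusted p = 0.778). The autophagy gene Map1lc3b and Bcl2l11, which encodes the death factor BIM, had log2 differences of 1.03 and 0.32 with overlapping genotypes.

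All 18 genes for partners and targets of FOXP and FOXC proteins were tested, 9 above 0 and 9 below, with a median of 0.04. None had an unadjusted p under 0.05 in limma. After scaling the genotypes did not overlap at 1 gene, with Azin2-/- lower, beside 4.86% of all 11687 loci in that direction. Prdm16, the regulator of brown fat identity, covered 10777, 9037 and 4715 bp in Azin2-/- 1, 2 and 8, against 1885, 5967 and 7293 bp in wild-type 1, 2 and 2b, and overlapped. Nfatc2, which pairs with FOXP proteins on DNA, had a log2 difference of 0.77. Gatad2b, a subunit of the NuRD corepressor that FOXP proteins recruit, and the FOXC target Cxcl12 had log2 differences of -1.09 and -0.85. None of these 4 was called (limma adjusted p between 0.778 and 0.803).

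Among the loci whose cover followed that of Foxp1 most closely over the 6 libraries were Tbc1d5 (Pearson r = 0.988 of log2 scaled cover), Ntf3 (0.986), Kansl1 (0.985) and Pim1 (0.981), out of 11686 loci compared. The values share their 6 libraries, and 72 loci had an r over 0.9, so this is a description without a test. Tbc1d5 had 2640, 1900 and 2894 bp in Azin2-/- 1, 2 and 8, against 2550, 2597 and 4641 bp in wild-type 1, 2 and 2b. In cover before scaling, wild-type 2b was highest and Azin2-/- 2 lowest at both genes.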

How the data were processed

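H3K27ac ChIP-seq peak lists were used in narrowPeak form, 1 per library, for 3 Azin2-/- and 3 wild-type libraries. The authors deposited for each peak a score, a fold (ratio of pileup to background), a −log10 p and a −log10 q, and a summit offset. Coordinates are in GRCm38, also named mm10, per the submitters' processing notes. Each library has its own list. Its read depth, aligner and caller were not given in the sources used here. The 30000 peaks of smallest p per library on chromosomes 1 to 19 and X were kept (order of equal p: fold, then chromosome and position). Their cover of each protein-coding locus (RefSeq span, 5 kb on each side) and of regions merged over libraries was scaled to equal totals and tested across all loci or regions with limma 3.58.1 in R 4.3.3 (log2 of cover plus 500 bp for loci, 200 bp for regions, the same minimum mean cover, mean trend, Benjamini-Hochberg at 0.05). The procedure was tested on simulated data. Other steps used Python 3.11.15 with pandas 2.3.3, numpy 2.4.6 and scipy 1.17.1. Fragments at a summit were solved from fold and p as (pileup + 1)/(background + 1) with a Poisson p. The members, the lists and the tests were chosen with earlier results of these data known. Text names all 8 members, the 2 genes of smallest p in each direction of each list, and the 5 loci most like Foxp1, of which 1 is not reported here. The alternatives tried were list length, q cut, window form, pseudocount, minimum, scaling, margin, ties, a replicate block and leaving out each library.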

Additional observations from a re-analysis of the deposited data

How the results depend on the processing

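In the main fit to the lists of 30000 peaks no locus and no merged region was called, and this held without each library in turn (0 to 0 in both directions). Called loci, higher and then lower in Azin2-/-, numbered 22 and 4 at a deposited q of 0.01, 32 and 19 with fixed windows, and 14 and 3 with the replicate block. Called regions numbered 13 and 37 with the 60000 strongest peaks, 0 and 1 at q 0.05, 0 and 3 at q 0.01, 522 and 40 with fixed windows, 15 and 46 with no minimum, and 12 and 20 with the replicate block. Replicates 1 and 2 share only a number between the genotypes (correlation of deviations -0.04 and 0.12), and the block leaves out Azin2-/- 8 and wild-type 2b. Under the block the Foxp1 locus was at -1.07 and its first-start region at -1.20. That region, which was chosen on this contrast, was not called in the main fit. It was called in 5 settings: the block, the 60000 strongest peaks, q 0.01, no minimum and, with the opposite sign, fixed windows. The block, no minimum and fixed windows also start from the 30000 peaks. Loci whose genotypes do not overlap, 778 with Azin2-/- higher and 568 lower, numbered 421 higher with the 5000 strongest peaks, 497 at q 0.05, 466 at q 0.01 and 418 with fixed windows, and 934 lower with all deposited peaks. Without scaling they were 837 higher and 287 lower. Without 1 library they numbered 1124 to 1648 higher and 941 to 1389 lower, 1665 and 1140 with wild-type 2 and 2b averaged, and 2608 and 1699 with the block, as fewer libraries must then be apart. Of 221 values of the member loci and of 3 Foxp1 regions under alternatives, 203 moved by less than 1 SD between libraries and 18 by more. Foxp1, Foxp4, Foxc1 and Foxc2 kept their sign in all 23 alternatives, the others did not: Foxp2 changed in 5 of 22 (with the 5000 strongest peaks it fell under the minimum), Foxo1 in 6 and Foxo3 in 2. The first-start region was at -2.58 to -0.72 except with fixed windows (1.81). At the third Foxp1 start 1 library of 6 had a peak among the 5000 strongest, and at the second start 4 had one among all deposited peaks. Equal p-values fill the end of the list (149 to 24019 peaks per library). In 2 alternatives chosen after seeing the data, Foxp1 was at -0.95 without these ties and at -0.76 with all of them. Where the cause of a change is not given, the cause was not tested. Stacks of 8 fragments or fewer limit the precision of most peaks.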

Other observations

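The epithelial markers, read as a check of the culture, had a summed cover of 2150 to 3866 bp in Azin2-/- and 1438 to 3308 bp in wild-type, with Epcam and Cdh1 marked in all 6 libraries and Krt14 in none. The summed cover of the 3 mural markers was 0 to 1333 bp in Azin2-/- and 822 to 2302 bp in wild-type. That of the adipocyte markers was 7056 to 9517 bp in Azin2-/- and 6386 to 11833 bp in wild-type, that of the progenitor markers 12145 to 25848 bp in Azin2-/- and 20117 to 25955 bp in wild-type, and that of the T cell markers 798 to 5101 bp in Azin2-/- and 0 to 1365 bp in wild-type.

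The length of the longest start peak, was set against the other peaks of its own list of 30000. At Foxp4 434, 278 and 1072 peaks were as long or longer in Azin2-/- 1, 2 and 8, against 439, 1471 and 1599 in wild-type 1, 2 and 2b, with overlap. At Foxo1 the numbers were 322, 46 and 739 in Azin2-/- and 3692, 358 and 422 in wild-type, also with overlap. At Foxo3 these numbers were 172, 2584 and 3978 in Azin2-/- and 73, 123 and 38 in wild-type, and did not overlap, as at the first Foxp1 start. At Foxc1 they were 174, 323 and 1556 in Azin2-/- and 15, 398 and 28 in wild-type, with overlap. At the lower end of Foxc2 they were 346, 851 and 380 in Azin2-/-, against 497 and 700 in wild-type 2 and 2b, with overlap and no listed peak in wild-type 1. At the lower end of Foxp2 they were 2118 and 8716 in Azin2-/- 1 and 2, against 3752 and 11392 in wild-type 1 and 2b. How often the genotypes are apart in this measure at other starts was not computed. These are descriptions without a test, and the number of pieces into which a peak list breaks a marked stretch enters each of them.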
